A study of Mus musculus with 24 samples.

Results

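A set of 59 genes that work in S phase and in mitosis was followed across the uterus, ovary, pituitary and hypothalamus of female mice labelled Kdm4a knockout (KO) or wild type (WT), at 2.5 days post coitum (dpc). The genes were chosen by symbol, from the MCM helicase to the cytokinesis genes, with earlier results of these data known. All 59 were among the 24195 symbols of the deposited count tables. They fall by role into 12 genes of origin licensing and the replicative helicase, 10 of DNA synthesis and chromatin assembly, 9 cyclins, Cdk1 and transcription factors, 11 mitotic kinases and checkpoint genes, 8 chromosome and kinetochore genes, and 9 genes of the spindle and cytokinesis. The mice were C57BL6 females of 8 to 10 weeks, virgin until a natural timed mating, and each of the 8 groups (KO-labelled and WT for each of 4 tissues) held 3 libraries that the labels call biological replicates. Kdm4a encodes a histone demethylase. Whole tissues were taken and cleaned of fat, without separation of cell types, and the oviducts were flushed to check for embryos. The labels used here do not describe the deleted part of the allele, whether it was deleted in one tissue only, or how many animals stand behind a library.

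A dividing cell first licenses its replication origins, when Cdc6 and Cdt1 load the MCM helicase, and geminin (Gmnn) blocks a further loading. Cyclin E with its kinase starts DNA synthesis, and E2F transcription factors drive the genes for licensing, nucleotide supply and DNA polymerisation. Later in the cycle FoxM1 and the MuvB complexes drive the genes for mitosis, among them cyclin B, Cdk1, the Polo and Aurora kinases, the spindle checkpoint, the centromere proteins and the motors of the spindle. Most of these transcripts are scarce in cells that do not divide. In the mouse uterus at this stage of pregnancy, progesterone stops the division of the luminal epithelium while stromal cells divide, and in the ovary the granulosa cells of growing follicles are the main dividing cells. In a whole tissue, fewer cells of a type and less RNA per cell cannot be told apart.

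The libraries held 13201596 to 23865382 counts, so 1 count was worth 0.0419 to 0.0757 CPM, the usual scaling of counts by the library total. CPM are given here after scaling over all 24 libraries, and fold changes are log2(KO-labelled over WT) with their standard errors (SE) from edgeR's quasi-likelihood fit of each tissue. A gene was called where its Benjamini-Hochberg adjusted p was under 0.05. Kdm4a itself, the check of the labels, had 58.8, 59.1 and 63.97 CPM in KO-labelled uteri, against 89.5, 88.7 and 78.95 CPM in WT uteri, so the groups did not overlap (log2 fold change -0.50, SE 0.12, adjusted p = 0.122), and the authors' deposited table gives it a log2 fold change of -0.46 with an adjusted p of 0.0181. In the other 3 tissues the groups overlapped, with Kdm4a log2 fold changes of -0.33 (SE 0.29) in the ovary, -0.01 (SE 0.17) in the pituitary and 0.35 (SE 0.31) in the hypothalamus. For that reason the text says KO-labelled and not knockout. In 3 tissues a KO-labelled library stood apart from the other 5 on the first principal component of the genes tested: number 1 in the uterus, 2 in the ovary and 1 in the pituitary. The hypothalamic libraries were spread along that component, with KO-labelled library 2 at one end. Results are given with and without these 4 libraries. The 3 that stood apart had fewer counts from long transcripts than the mean of their tissue (Spearman rho of a gene's deviation with transcript length -0.40 in the uterus, -0.59 in the ovary and -0.52 in the pituitary). Their rho with GC content was 0.19, 0.25 and 0.50. Hypothalamic libraries ran from -0.63 (KO-labelled library 1) to 0.65 (WT library 2) with length. With GC content they ran from -0.63 (WT library 1) to 0.72 (KO-labelled library 2). The ribosomal RNA precursor Rn45s took 3.87% of counts in KO-labelled ovary library 2, against 0.0802 to 0.168% in the other ovarian libraries, and 1.21% in KO-labelled hypothalamus library 2, against 0.0387 to 0.287% in the other hypothalamic libraries. The part of these differences in the values of the 59 genes was not tested. Exons of 12 members share bases with a neighbouring gene of the tables (Ccna2, Ccne2, Cdc20, Chaf1a, Fen1, Gins2, Kif20a, Mcm7, Ncapg, Nusap1, Prc1 and Tk1), and Ccnb1, Ccnb2, Pcna and Tyms have named pseudogenes, so some of their reads may belong to the other gene.

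In the uterus, none of the 59 genes was called at an adjusted p of 0.05, where 0.349% of the 14910 genes tested were called. The fold changes nevertheless lay on one side: 58 of 59 were positive (51.6% of all genes), with a median of 0.69 on the log2 scale against 0.01 over all genes. Of the 59, 51 had an unadjusted p under 0.05 and a positive fold change (6.44% of all genes), and in 49 every KO-labelled library lay above every WT library (9.4% of all genes). These counts, here and in the other tissues, describe genes that share the same libraries, so the genes are not independent results. The smallest adjusted p was 0.0615. DESeq2 on the same counts called 35 of the 59 higher, where it called 1.76% of all genes higher, and limma-voom called 0. The authors' deposited table, from a study whose processing notes name DESeq2, listed 35 of the 59 past an adjusted p of 0.05, all with a positive fold change. Of the 15286 genes with an adjusted p in that table, 533 were past 0.05 in either direction. The summed level of the 59 genes was 2635, 1954 and 2558 CPM in KO-labelled uteri, against 1594, 1523 and 1534 CPM in WT uteri. The KO-labelled libraries all lay above the WT libraries and were spread more widely, with 2382 ± 373 CPM in KO-labelled uteri and 1550 ± 38.3 CPM in WT uteri (mean ± SD, n = 3 each). Among the 6 uterine libraries, KO-labelled library 3 was the highest for 29 members and KO-labelled library 1 for 28. KO-labelled library 2, with the smallest excess, was the highest for none. Without KO-labelled library 1, the one that stood apart, the median was 0.66 with 58 positive, and edgeR called 5 members (0.311% of all genes were then called higher). Without KO-labelled library 2 edgeR called 19 (0.682%), and without any one of the other 4 libraries it called 0.

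**Figure D1:**
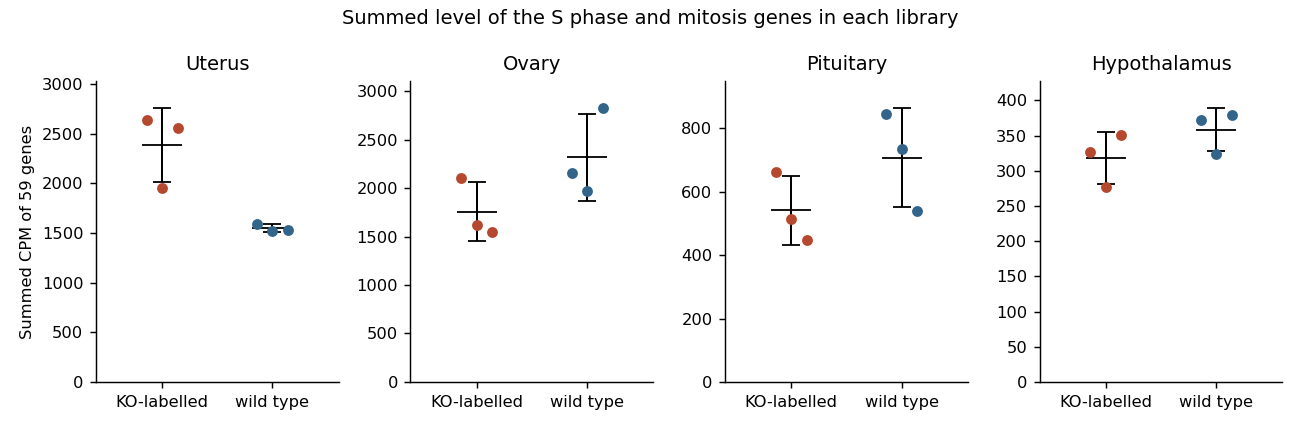
Summed CPM of the 59 S phase and mitosis genes in each library, 1 panel per tissue with its own axis; points are libraries, KO-labelled left and WT right, and the bars are means with SD (n = 3). KO-labelled uteri (1954 to 2635 CPM) lie above WT uteri (1523 to 1594 CPM), while the groups of the other 3 tissues overlap.

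The 12 licensing and helicase genes had a median log2 fold change of 0.57 in the uterus, and all 12 were positive. Mcm3, a subunit of the MCM helicase that unwinds DNA at the fork, had 121, 86.4 and 106 CPM in KO-labelled uteri, against 72.3, 65.8 and 67.2 CPM in WT uteri (0.61, SE 0.14, adjusted p = 0.122). Cdc6, the loader of the helicase, had 17.2, 14.3 and 15.97 CPM in KO-labelled uteri and 11.4, 7.46 and 8.30 CPM in WT uteri (0.80, SE 0.20). Both were higher in every KO-labelled library than in any WT library. Mcm7, another helicase subunit, had overlapping groups, at 118, 82.1 and 96.7 CPM in KO-labelled uteri and 82.3, 85.7 and 77.2 CPM in WT uteri (0.27, SE 0.15, adjusted p = 0.489).

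The 10 genes of DNA synthesis and chromatin assembly had a median of 0.62 and held the 1 negative member. Uhrf1 (mm10 chr17:56303321-56323486), which brings the maintenance DNA methyltransferase to newly copied DNA, had 55.5, 47.9 and 51.3 CPM in KO-labelled uteri, against 34.6, 25.9 and 26.8 CPM in WT uteri. The lowest KO-labelled library lay well above the highest WT library (0.82, SE 0.15, adjusted p = 0.0632). Pcna, the sliding clamp of the DNA polymerases, had 119, 102 and 110.2 CPM in KO-labelled uteri and 79.9, 87.01 and 88.9 CPM in WT uteri, a smaller difference with no overlap (0.37, SE 0.12, adjusted p = 0.231). Tyms, the enzyme that makes thymidylate, had 51.2, 43.6 and 54.3 CPM in KO-labelled uteri and 55.2, 50.5 and 49.03 CPM in WT uteri, with groups that overlapped throughout (-0.06, SE 0.13, adjusted p = 0.89).

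Among the 9 cyclins, Cdk1 and transcription factors the median was 0.79, and 8 had an unadjusted p under 0.05. Cdk1 (mm10 chr10:69335146-69352938), the kinase that drives entry into mitosis, had 86.9, 55.1 and 76.7 CPM in KO-labelled uteri, against 39.8, 41.5 and 39.4 CPM in WT uteri (0.85, SE 0.17, adjusted p = 0.0724). Its WT libraries were nearly level and all 3 KO-labelled libraries were above them. Cyclin A2 (Ccna2), the partner of Cdk2 and Cdk1 through S phase and G2, had 61.6, 58.7 and 73.99 CPM in KO-labelled uteri and 42.5, 37.7 and 39.9 CPM in WT uteri (0.69, SE 0.14). Of the cyclin E genes, which start S phase, Ccne1 had 15.2, 15.2 and 17.3 CPM in KO-labelled uteri and 10.5, 6.92 and 10.04 CPM in WT uteri (0.79, SE 0.20), while Ccne2 had 1.81, 2.26 and 2.35 CPM in KO-labelled uteri and 1.495, 2.02 and 2.36 CPM in WT uteri (0.13, SE 0.31). The groups of Ccne1 were separate and those of Ccne2 overlapped.

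The 11 mitotic kinases and checkpoint genes had a median of 0.91, and 10 of them had an unadjusted p under 0.05. Plk1 (mm10 chr7:122159439-122169873), the Polo kinase of centrosome maturation and mitotic entry, had 33.7, 26.7 and 40.8 CPM in KO-labelled uteri, against 17.2, 17.8 and 14.5 CPM in WT uteri. Every KO-labelled library exceeded every WT library (1.03, SE 0.18, adjusted p = 0.0615). Cdc20 (mm10 chr4:118432901-118437352), the activator of the anaphase-promoting complex, had 56.8, 29.4 and 45.8 CPM in KO-labelled uteri, against 18.97, 21.8 and 16.4 CPM in WT uteri (1.20, SE 0.23, adjusted p = 0.0689). KO-labelled library 2 was the closest to WT. Cdc20 lies 0.253 Mb from Kdm4a on chromosome 4, and Kif2c, a kinesin that takes microtubules apart, lies 0.954 Mb from it. Kif2c had 22.04, 17.5 and 25.2 CPM in KO-labelled uteri and 14.7, 15.3 and 11.9 CPM in WT uteri (0.62, SE 0.19, adjusted p = 0.202). Birc5, the survivin subunit of the chromosomal passenger complex, had 92.7, 46.3 and 65.4 CPM in KO-labelled uteri and 30.9, 33.8 and 35.5 CPM in WT uteri (1.02, SE 0.22). Bub1b, a checkpoint kinase relative, was the exception of this group, with 29.1, 24.1 and 40.5 CPM in KO-labelled uteri and 23.7, 24.98 and 23.5 CPM in WT uteri (0.37, SE 0.19, adjusted p = 0.469).

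The 8 chromosome and kinetochore genes had the largest median of the 6 roles, 0.99, and held 4 of the 8 members with the smallest p. Cenpe (mm10 chr3:135212537-135273611), the kinetochore motor that brings chromosomes to the spindle equator, had 12.2, 8.99 and 12.6 CPM in KO-labelled uteri, against 5.43, 4.29 and 5.17 CPM in WT uteri (1.18, SE 0.21, adjusted p = 0.0615). Cenpf (mm10 chr1:189640606-189688086), a large protein of the outer kinetochore, had 14.3, 10.5 and 14.4 CPM in KO-labelled uteri, against 5.896, 6.06 and 6.71 CPM in WT uteri (1.06, SE 0.19, adjusted p = 0.0615). In both, every KO-labelled library lay above every WT library. Cenpa (mm10 chr5:30666777-30674830), the histone H3 variant of centromeres, had 39.1, 22.2 and 32.9 CPM in KO-labelled uteri, against 14.9, 14.8 and 14.7 CPM in WT uteri (1.08, SE 0.20, adjusted p = 0.0644). Its WT libraries were almost equal, and KO-labelled library 2 again lay nearest to them. Ncapg (mm10 chr5:45669919-45700546), a condensin subunit, had 11.4, 9.58 and 11.4 CPM in KO-labelled uteri, against 3.12, 5.56 and 4.71 CPM in WT uteri, the largest fold change of the 59 (1.27, SE 0.24, adjusted p = 0.0662). Its exons share bases with those of Lcorl, and the library kit does not mark strand. Mki67, the proliferation antigen of the chromosome surface, had 45.7, 23.96 and 33.03 CPM in KO-labelled uteri and 16.3, 17.4 and 20.8 CPM in WT uteri (0.91, SE 0.23).

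The 9 spindle and cytokinesis genes had a median of 0.69, with 8 at an unadjusted p under 0.05. Ect2, the exchange factor that starts the contractile ring, had 15.5, 15.5 and 28.8 CPM in KO-labelled uteri, against 9.23, 9.44 and 10.5 CPM in WT uteri (1.04, SE 0.26). Kif11, the motor that pushes the spindle poles apart, had 22.3, 18.7 and 26.2 CPM in KO-labelled uteri, against 12.6, 12.6 and 12.7 CPM in WT uteri (0.82, SE 0.17). In both genes the groups were separate and the KO-labelled libraries were the more spread. Anln, an actin-binding scaffold of the contractile ring, had overlapping groups, with 25.1, 29.6 and 39.3 CPM in KO-labelled uteri and 27.2, 27.3 and 27.1 CPM in WT uteri (0.20, SE 0.18, adjusted p = 0.681).

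**Figure D2:**
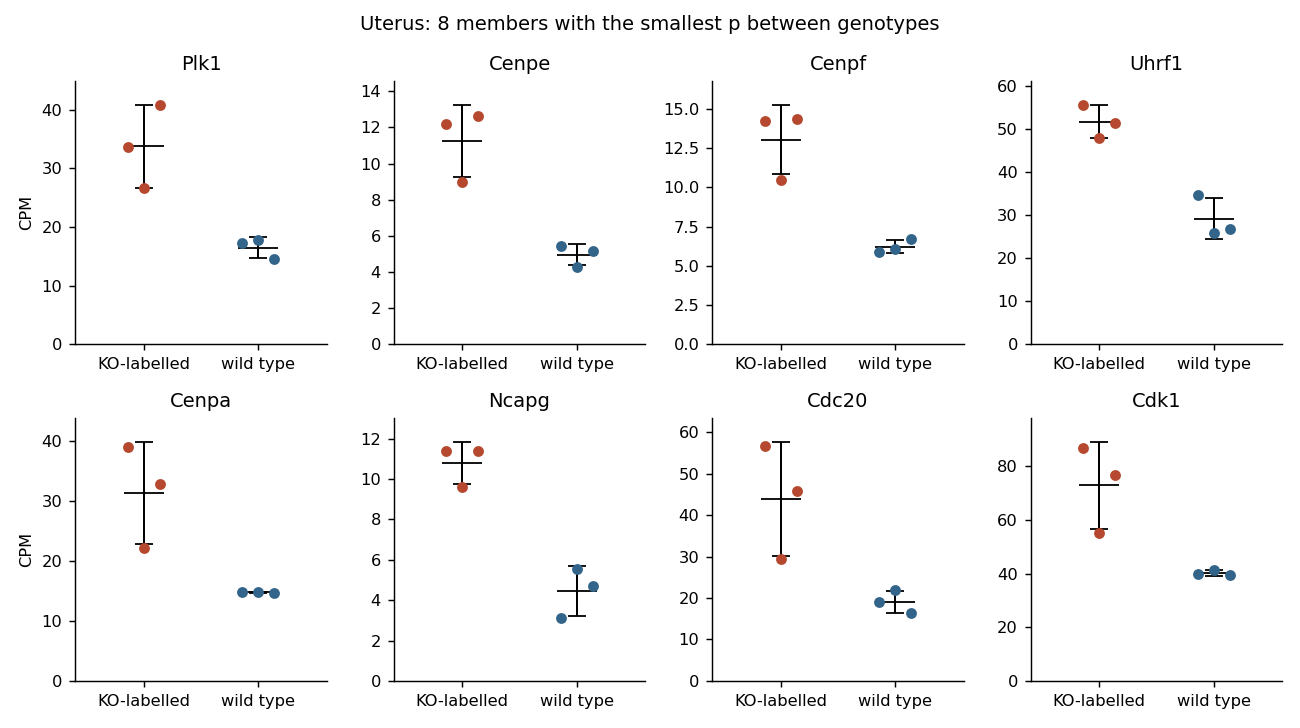
CPM in each uterine library of the 8 members with the smallest p between genotypes; points are libraries, KO-labelled left and WT right, with means and SD (n = 3). In each panel the 3 KO-labelled points lie above the 3 WT points, and Ncapg has the largest log2 fold change, 1.27.

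Promoter sequence is shown for 4 members of different roles, because E2F, FoxM1 with MuvB, and NF-Y are known to drive these genes through short motifs near the start site. The 250 bases before the start of Cdc20 (chr4:118437344-118437593, minus strand), Cdk1 (chr10:69352913-69353162, minus strand), Top2a (chr11:99024190-99024439, minus strand) and Uhrf1 (chr17:56303087-56303336, plus strand) are given 5′ to 3′ from RefSeq on GRCm38.p6. Capitals mark TTTGAA (the core of the CHR element of MuvB and FoxM1 targets), CCAAT (the NF-Y box) and GCGGGAA (an E2F site) on either strand. The same motifs read on the other strand appear as TTCAAA for the first, as ATTGG for the second box and as TTCCCGC for the E2F site.
Cdc20: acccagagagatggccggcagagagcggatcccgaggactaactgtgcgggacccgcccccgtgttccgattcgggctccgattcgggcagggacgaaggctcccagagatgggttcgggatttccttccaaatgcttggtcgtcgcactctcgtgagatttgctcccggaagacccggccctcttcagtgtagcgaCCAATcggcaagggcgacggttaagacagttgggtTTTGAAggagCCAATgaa
Cdk1: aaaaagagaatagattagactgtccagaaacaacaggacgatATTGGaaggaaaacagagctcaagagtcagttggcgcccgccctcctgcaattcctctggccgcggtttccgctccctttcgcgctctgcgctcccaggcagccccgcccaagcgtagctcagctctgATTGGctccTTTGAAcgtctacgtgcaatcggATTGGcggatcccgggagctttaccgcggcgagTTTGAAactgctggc
Top2a: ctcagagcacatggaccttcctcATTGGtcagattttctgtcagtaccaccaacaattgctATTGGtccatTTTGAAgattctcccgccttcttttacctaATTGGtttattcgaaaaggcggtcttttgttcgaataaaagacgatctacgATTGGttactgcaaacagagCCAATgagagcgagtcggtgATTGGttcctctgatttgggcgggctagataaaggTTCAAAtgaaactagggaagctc
Uhrf1: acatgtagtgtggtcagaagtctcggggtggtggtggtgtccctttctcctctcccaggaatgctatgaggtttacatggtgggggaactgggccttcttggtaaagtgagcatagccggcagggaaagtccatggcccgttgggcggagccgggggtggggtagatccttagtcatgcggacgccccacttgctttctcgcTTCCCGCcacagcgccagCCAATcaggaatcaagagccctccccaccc

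Cdc20, Cdk1 and Top2a held TTTGAA and CCAAT and no GCGGGAA in this window, and Uhrf1 held GCGGGAA and CCAAT and no TTTGAA. RefSeq promoters were matched for 48 of the 59 genes. CCAAT was found in 34 of the 48 (70.8%, against 37.5% of 27025 promoters of the same length), and TTTGAA in 15 (31.2%, against 18.3%). The pair of TTTGAA and CCAAT was found in 13 (27.1%, against 7.34%), and GCGGGAA in 7 (14.6%, against 4.38%). By role, GCGGGAA was found in 2 of 8 licensing genes and 5 of 10 synthesis genes and in 0 genes of the other 4 roles. TTTGAA was found in 4 of 8 chromosome genes, 4 of 7 spindle genes and 3 of 6 cyclins and transcription factors. It was also found in 2 of 9 kinase and checkpoint genes, 1 of 8 licensing genes and 1 of 10 synthesis genes. A match is a run of letters, not a measured binding site. The promoters not matched were those of Aurkb, Ccna2, Ccne2, Foxm1, Gins1, Gins2, Gmnn, Kif20a, Mcm4, Pbk and Tpx2.

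Further genes of the same pathways were read from lists, which were chosen with earlier results of these data known. Of 38 further mitosis genes, all 38 had a positive fold change, with a median of 0.82 and 31 at an unadjusted p under 0.05. Ckap2, a microtubule-associated protein of the spindle, had 30.6, 23.8 and 28.4 CPM in KO-labelled uteri and 13.7, 15.8 and 12.3 CPM in WT uteri (0.98, SE 0.16, adjusted p = 0.051). Ube2c, the ubiquitin-conjugating enzyme of the anaphase-promoting complex, had 87.4, 51.3 and 77.6 CPM in KO-labelled uteri and 29.99, 33.3 and 35.9 CPM in WT uteri (1.12, SE 0.19, adjusted p = 0.0554). Both genes had separate groups, and neither was called. Of 32 further replication genes, 31 were positive, with a median of 0.41 and 16 at an unadjusted p under 0.05. Clspn, the checkpoint adaptor of the fork, had 15.3, 15.6 and 14.7 CPM in KO-labelled uteri and 8.16, 6.801 and 8.30 CPM in WT uteri (0.97, SE 0.17, adjusted p = 0.0554), and Dbf4, the activator of the Cdc7 kinase, differed by 0.95 (SE 0.18) on the log2 scale (adjusted p = 0.0644).

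All 10 genes of a list of D cyclins, cell cycle kinases and the Cdc25 phosphatases, which act from G1 to the entry into mitosis, had positive fold changes, with a median of 0.33 and 4 at an unadjusted p under 0.05. Cyclin D1 (Ccnd1) had 279, 254 and 179 CPM in KO-labelled uteri and 118, 140.0 and 138 CPM in WT uteri (0.84, SE 0.17, adjusted p = 0.0796), and Cdc25b, a phosphatase of mitotic entry, differed by 0.51 (SE 0.13) on the log2 scale (adjusted p = 0.129). The 14 cell cycle inhibitors and pocket proteins tested were split, 6 positive and 8 negative, with a median of -0.03. The kinase inhibitor Cdkn1a (p21) had 87.4, 78.7 and 21.3 CPM in KO-labelled uteri, against 10.8, 11.7 and 14.8 CPM in WT uteri (2.33, SE 0.44, adjusted p = 0.0649). KO-labelled libraries 1 and 2 were far above WT and library 3 much less so, and without library 3 Cdkn1a was called (adjusted p = 0.00182). Without any one of the other 5 libraries its adjusted p lay between 0.112 and 0.338. Cdkn2d, an inhibitor of Cdk4 and Cdk6, differed by 0.64 (SE 0.17) on the log2 scale (adjusted p = 0.143). Of 14 other E2F and MuvB genes, 9 were positive with a median of 0.13, and the 2 with the smallest p were E2f2 (0.78, SE 0.20, adjusted p = 0.15) and Mybl2 (0.73, SE 0.25, adjusted p = 0.265), both transcription factors of the cell cycle.

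Oestrogen and progesterone set when uterine cells divide, so genes known to follow each hormone were read beside the 59. Both lists were chosen with earlier results of these data known, so their counts are descriptions and not an independent test. Of 10 genes induced by oestrogen, 9 were positive with a median of 1.03, and 2 rose (0.134% of all genes were called higher). Clca1, a secreted protein, rose to 34.7, 28.6 and 32.7 CPM in KO-labelled uteri, against 10.8, 8.24 and 10.1 CPM in WT uteri (1.72, SE 0.17, adjusted p = 0.00957). Lcn2, a lipocalin that binds the iron carriers of bacteria, rose to 45.2, 29.8 and 31.3 CPM in KO-labelled uteri, against 7.43, 6.47 and 14.6 CPM in WT uteri (1.90, SE 0.31, adjusted p = 0.0447). Of 10 genes induced by progesterone, 3 were positive with a median of -0.48, and 2 fell (0.215% of all genes were called lower). Sult1d1, a sulfotransferase, fell to 66.7, 97.04 and 71.6 CPM in KO-labelled uteri, against 162, 192 and 157 CPM in WT uteri (-1.12, SE 0.17, adjusted p = 0.0383). Calca, the calcitonin gene, fell to 0.861, 1.86 and 1.01 CPM in KO-labelled uteri, against 6.54, 9.398 and 4.56 CPM in WT uteri (-2.45, SE 0.39, adjusted p = 0.0419). These 4 calls were lost without some single libraries (Clca1 without WT library 2 or 3; Lcn2 without KO-labelled library 1 or any WT library; Sult1d1 without any WT library; Calca without KO-labelled library 3 or any WT library).

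Markers of the cell types of the uterine wall were uneven between libraries. The summed level of 7 epithelial markers was 1851, 1024 and 1835 CPM in KO-labelled uteri, against 1418, 1565 and 1356 CPM in WT uteri, and it was lowest in KO-labelled library 2, the library with the smallest excess of the 59 genes. Of these 7 markers, 3 had positive fold changes, the largest 2.06, and 4 had negative ones. 1 of the 7 was called higher (adjusted p = 0.0282), where 0.134% of all genes were called higher. The 7 stromal markers summed to 8290 to 9959 CPM in KO-labelled uteri and 7923 to 10912 CPM in WT uteri. The 5 smooth muscle markers summed to 5804, 10457 and 6773 CPM in KO-labelled uteri, against 7422, 8107 and 10122 CPM in WT uteri, and all 5 had negative fold changes. The 2 oviduct markers had opposite directions, each with no overlap and neither called. Of 14910 uterine genes tested, 1401 had no overlap with KO-labelled libraries higher, and 1507 with them lower. Ovgp1, the oviductal glycoprotein, had 6.11, 21.5 and 20.4 CPM in KO-labelled uteri, against 45.8, 69.9 and 62.1 CPM in WT uteri (-1.89, SE 0.40, adjusted p = 0.0862). Foxj1, a transcription factor of ciliated cells, had 2.196, 1.47 and 1.84 CPM in KO-labelled uteri, against 0.684, 1.15 and 0.666 CPM in WT uteri (1.12, SE 0.37, adjusted p = 0.246). The 4 neutrophil genes summed to 9.86, 6.73 and 4.57 CPM in KO-labelled uteri, against 1.62, 0.412 and 3.95 CPM in WT uteri. S100a8, a calcium-binding protein of neutrophils, had 4.52, 3.37 and 2.64 CPM in KO-labelled uteri, against 0.641, 0.289 and 1.18 CPM in WT uteri (2.33, SE 0.47, adjusted p = 0.0766), while Ngp was at 0 in all 6 libraries and Camp in all but WT library 3. The 5 lymphocyte genes summed to 5.597, 8.44 and 4.82 CPM in KO-labelled uteri, against 4.14, 1.11 and 3.59 CPM in WT uteri. The 3 of them that were tested all had positive fold changes, and 0 were called. The part of these markers in the difference of the 59 genes was not tested.

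In the ovary most fold changes lay on the other side of zero. None of the 59 was called by edgeR, DESeq2 or limma-voom, where edgeR called 0% of 14460 genes. There were 5 positive fold changes (Tk1, Foxm1, Aurka, Birc5 and Cenpa) and 54 negative ones (52.5% of all genes were positive), with a median of -0.39 against 0.03 over all genes. Of the 59, 6 had a negative fold change with an unadjusted p under 0.05 (Mcm3, Mcm4, Ccne2, Ttk, Top2a and Ncapg; 3.54% of all genes). In 11 members every KO-labelled library lay below every WT library (9.34% of all genes).

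The summed level was 2103, 1620 and 1552 CPM in KO-labelled ovaries, against 2161, 1966 and 2823 CPM in WT ovaries. The groups overlapped, and the highest value came from WT library 3, which was the highest of the 6 libraries for 52 members. Without it the median was -0.24 and 17 members were positive. Without KO-labelled library 2, which stood apart, the median was -0.34 and 1 member was positive.

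Ncapg, the condensin subunit with the largest fold change in the uterus, had the smallest p in the ovary, at 21.3, 16.5 and 15.5 CPM in KO-labelled ovaries, against 25.5, 26.6 and 30.5 CPM in WT ovaries (-0.64, SE 0.20, adjusted p = 0.597). Its groups did not overlap. Mcm3 had 55.1, 34.01 and 30.2 CPM in KO-labelled ovaries, against 61.2, 54.6 and 83.6 CPM in WT ovaries (-0.75, SE 0.28, adjusted p = 0.597), and KO-labelled library 1 lay within the WT range. Ccne2 had 6.05, 3.68 and 5.24 CPM in KO-labelled ovaries, against 7.299, 7.15 and 12.7 CPM in WT ovaries (-0.86, SE 0.34, adjusted p = 0.597), with no overlap. Top2a, the topoisomerase that untangles sister chromatids, had 148, 76.6 and 105 CPM in KO-labelled ovaries, against 169, 142 and 211 CPM in WT ovaries (-0.67, SE 0.28). Cenpa had the largest positive fold change, with 15.1, 30.7 and 17.2 CPM in KO-labelled ovaries and 16.5, 13.8 and 17.9 CPM in WT ovaries (0.38, SE 0.31) and was highest in KO-labelled library 2. By role the medians were -0.48 for licensing, -0.31 for synthesis, -0.26 for cyclins and transcription factors, -0.28 for kinases and checkpoint, -0.53 for chromosomes and -0.45 for the spindle.

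Cell type markers also differed between the ovarian libraries. The 7 granulosa markers summed to 1613, 1729 and 2003 CPM in KO-labelled ovaries, against 2319, 1835 and 2649 CPM in WT ovaries, with the highest sum in WT library 3, and 1 of the 7 had a positive fold change. The 6 luteal markers summed to 13409, 34912 and 29228 CPM in KO-labelled ovaries, against 18873, 12825 and 16771 CPM in WT ovaries, and 5 of the 6 had a positive fold change. The 5 smooth muscle markers, all with positive fold changes, summed to 1773, 2154 and 1420 CPM in KO-labelled ovaries, against 1361, 1385 and 1398 CPM in WT ovaries. The 3 macrophage markers summed to 189.7, 185 and 132 CPM in KO-labelled ovaries, against 108, 94.9 and 127 CPM in WT ovaries, and 2 of the 3 had no overlap (C1qa and Cd68). Of 14460 ovarian genes tested, 1201 had every KO-labelled library above every WT library. All 6 stromal markers tested and all 5 endothelial markers were positive, with medians of 0.31 and 0.21, and no marker of these 4 lists was called. The part of these markers in the values of the 59 genes was not tested. Of the further genes, 6 of 32 replication genes and 9 of 38 mitosis genes had positive fold changes in the ovary, with medians of -0.29 and -0.26.

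In the pituitary most fold changes were negative, and the medians differed by role. None of the 59 was called by edgeR, DESeq2 or limma-voom, where edgeR called 0.0424% of 14163 genes. Positive fold changes were found in 6 (Mcm7, Mcm10, Cdt1, Gins2, Tk1 and Fen1, all of licensing or synthesis) and negative ones in 53 (49.9% of all genes were positive), with a median of -0.56. Of the 59, 15 had a negative fold change with an unadjusted p under 0.05 (6.07% of all genes), and none of the 15 belonged to licensing or synthesis. They were 5 cyclins and transcription factors, 2 kinases and checkpoint genes, 3 chromosome genes and 5 spindle genes. In 7 members every KO-labelled library lay below every WT library (8% of all genes). The medians were -0.23 for licensing and -0.27 for synthesis, and between -0.65 and -0.80 for the other 4 roles. Pituitary fold changes also ran with GC content, with a Spearman rho of 0.33 over the 59 and 0.55 over all annotated genes. Median GC content was 50.7% for licensing, 48.0% for synthesis, 49.3% for cyclins and transcription factors and 50.4% for kinases and checkpoint. It was 43.3% for chromosomes and 45.3% for the spindle. The part of GC content in this split by role was not tested.

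Ect2 had 8.29, 4.32 and 4.99 CPM in KO-labelled pituitaries, against 14.9, 16.7 and 7.698 CPM in WT pituitaries (-1.2, SE 0.33, adjusted p = 0.289). WT library 3 lay within the KO-labelled range. Cyclin B1 (Ccnb1), the activator of Cdk1 at mitosis, had 2.38, 1.49 and 0.7803 CPM in KO-labelled pituitaries, against 4.77, 5.26 and 3.35 CPM in WT pituitaries, the largest difference of the 59 and with no overlap (-1.56, SE 0.44, adjusted p = 0.289). It rested on 58 counts over the KO-labelled libraries and 164 over the WT libraries. Cenpe had 1.89, 2.51 and 1.72 CPM in KO-labelled pituitaries, against 4.77, 6.51 and 2.68 CPM in WT pituitaries (-1.22, SE 0.41, adjusted p = 0.305). Top2a had 30.6, 15.8 and 13.03 CPM in KO-labelled pituitaries, against 54.6, 36.05 and 25.9 CPM in WT pituitaries (-1.01, SE 0.34), with KO-labelled library 1 inside the WT range. Mcm4 had nearly equal means, at 35.1, 41.9 and 40.3 CPM in KO-labelled pituitaries and 38.3, 38.2 and 38.7 CPM in WT pituitaries (0.00, SE 0.16).

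The summed level was 662, 515 and 447 CPM in KO-labelled pituitaries, against 847, 736 and 538 CPM in WT pituitaries, and the groups overlapped. KO-labelled library 3 was the lowest for 40 members and WT library 1 the highest for 36. Without KO-labelled library 1, which stood apart, the median was -0.99, and without KO-labelled library 3 it was -0.28. The 6 pituitary hormone genes took 55.7%, 46.2% and 46.6% of all counts in KO-labelled pituitaries and 45.04%, 35.98% and 43.1% in WT pituitaries, which leaves fewer counts for other genes and which the scaling between libraries is meant to offset. The 4 neutrophil genes summed to 2.79, 1.33 and 1.87 CPM in KO-labelled pituitaries, against 82.5, 144 and 8.62 CPM in WT pituitaries. They include Ngp and Camp, which neutrophil precursors make. The 5 endothelial markers summed to 366, 353 and 310.1 CPM in KO-labelled pituitaries, against 177, 238 and 167 CPM in WT pituitaries, and Plvap, a protein of fenestrated capillaries, was called higher (1.13, SE 0.17, adjusted p = 0.0386), a call that was lost without any 1 of the 6 libraries. The 4 stem cell markers summed to 66.4, 77.2 and 64.5 CPM in KO-labelled pituitaries and 72.3, 81.7 and 90.9 CPM in WT pituitaries. The part of these markers in the values of the 59 genes was not tested. Of the further genes, 9 of 32 replication genes and 4 of 38 mitosis genes were positive, with medians of -0.24 and -0.55.

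The hypothalamus holds few dividing cells, and 44 of the 59 genes passed the filter on low counts there. The 15 that did not pass were Mcm10, Cdc6, Tk1, Chaf1b, Ccnb1, Ccnb2, Cdk1, E2f8, Aurkb, Bub1, Ttk, Cdc20, Espl1, Ncapg and Kif2c. None of the 44 was called by edgeR, DESeq2 or limma-voom, where edgeR called 0% of 14788 genes. There were 13 positive and 31 negative fold changes (50.7% of all genes were positive), with a median of -0.14. An unadjusted p under 0.05 was found in 2. Fen1, the flap nuclease of Okazaki fragments, had 18.4, 25.6 and 14.2 CPM in KO-labelled hypothalami, against 11.8, 10.01 and 11.3 CPM in WT hypothalami (0.77, SE 0.29, adjusted p = 0.588; 3.44% of all genes were at such a p with a positive fold change). Its groups did not overlap, but its exons share bases with Tmem258. Mki67 had 0.5104, 0.667 and 0.376 CPM in KO-labelled hypothalami, against 2.12, 1.37 and 0.633 CPM in WT hypothalami (-1.45, SE 0.57, adjusted p = 0.588; 3.32% of all genes with a negative one), and its groups overlapped slightly. Anln had 49.9, 30.9 and 84.9 CPM in KO-labelled hypothalami, against 94.7, 61.6 and 113 CPM in WT hypothalami, with overlapping groups (-0.74, SE 0.36, adjusted p = 0.588). Without KO-labelled library 2 the median was -0.13, and leaving out each library in turn gave medians between -0.27 and -0.09.

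**Figure D3:**
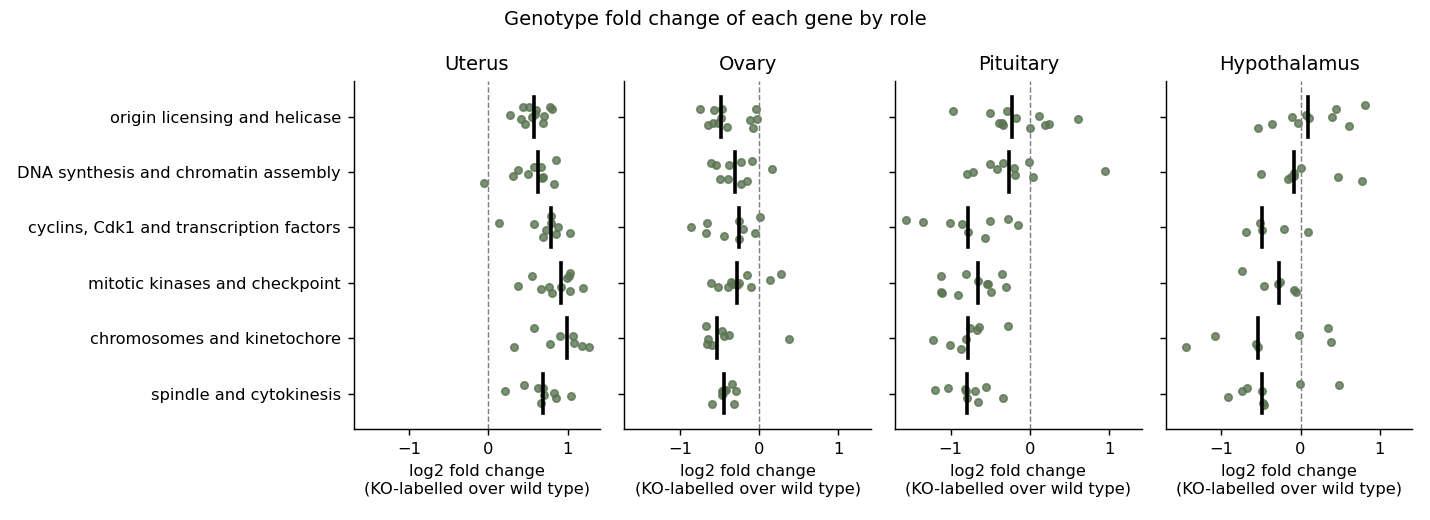
Log2 fold change (KO-labelled over WT, x axis) of each of the S phase and mitosis genes by role, 1 panel per tissue; each point is a gene and the black bars are role medians. In the uterus the points lie above zero apart from Tyms at -0.06, in the ovary and pituitary most lie below zero, and the hypothalamus shows the 44 genes that passed the filter.

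Read gene by gene over the 3 reproductive and endocrine tissues, 48 of the 59 members had a positive fold change in the uterus with negative ones in ovary and pituitary. Another 5 were positive in uterus and pituitary (Cdt1, Fen1, Gins2, Mcm10 and Mcm7), 4 in uterus and ovary (Aurka, Birc5, Cenpa and Foxm1), Tk1 in all 3 and Tyms in none. Whether the genotype effect itself differed between tissues was tested in 1 fit over the 24 libraries, as the difference of the log2 fold changes. The 3 differences share libraries with each other, so they are not independent.

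The uterine fold change exceeded the ovarian one in all 59 genes (45.2% of all genes), by a median of 1.01 log2 units against -0.05 over all genes. None was called (0.0354% of 16971 genes were called), the smallest adjusted p was 0.15, and 36 had an unadjusted p under 0.05 (4.38% of all genes). DESeq2 called 7 (0.605% of all genes were called higher). The medians were 0.94 for licensing, 0.92 for synthesis, 1.0 for cyclins and transcription factors, 1.08 for kinases and checkpoint, 1.36 for chromosomes and 1.08 for the spindle. Ccne1 differed by 1.45 (SE 0.36, adjusted p = 0.151), Mcm4 by 0.98 (SE 0.27, adjusted p = 0.213) and Mcm3 by 1.35 (SE 0.37, adjusted p = 0.218). With the 3 libraries of uterus, ovary and pituitary that stood apart left out together, the median was 0.93 and all 59 differences were still positive, with 0 called.

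The uterine fold change exceeded the pituitary one in 57 of 59 genes (46.2% of all genes), by a median of 1.26, with 0 called (0.053% of all genes) and 39 at an unadjusted p under 0.05 (3.62% of all genes). DESeq2 called 10 (0.408% of all genes were called higher). Here the roles were less even. The medians were 0.65 for licensing, 0.64 for synthesis, 1.40 for cyclins and transcription factors and 1.53 for kinases and checkpoint. They were 1.69 for chromosomes and 1.38 for the spindle. The part of GC content in this unevenness was not tested. Cenpe differed by 2.37 (SE 0.56, adjusted p = 0.184), Ect2 by 2.20 (SE 0.52, adjusted p = 0.184) and Top2a by 1.75 (SE 0.42, adjusted p = 0.184), while Mcm7 differed by 0.00 (SE 0.34, adjusted p = 1). The median was 1.71 with 4 members called without KO-labelled pituitary library 1 (0.0464% of all genes were called higher), and 1.69 with 3 called without the 3 libraries that stood apart (0.0525%).

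The ovarian and pituitary fold changes were closer, with a median difference of 0.23, 40 positive (50.5% of all genes), 0 called (0.00589% of all genes) and 1 at an unadjusted p under 0.05 (2.49% of all genes). DESeq2 called 0. Ccnb1 differed by 1.27 (SE 0.55, adjusted p = 0.906), Mcm4 by -0.54 (SE 0.27, adjusted p = 0.965) and Mcm7 by -0.68 (SE 0.34, adjusted p = 0.965). The median was -0.02 without KO-labelled pituitary library 3 and 0.61 without the 3 libraries that stood apart, so the sign of the median was not stable.

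In WT mice the level of these genes ordered the tissues. The median CPM over the 59 genes was 17.7 in the uterus, 26.7 in the ovary, 7.26 in the pituitary and 1.67 in the hypothalamus. Of the 59, 38 followed the order ovary, uterus, pituitary, hypothalamus, and 15 the order uterus, ovary, pituitary, hypothalamus. The ovary was called higher than the hypothalamus for 56 genes (36.2% of 16399 genes were called higher) and than the pituitary for 54 (29.9%). The uterus was called higher than the hypothalamus for 55 (38.9%) and than the pituitary for 45 (35.6%), and the pituitary was called higher than the hypothalamus for 50 (30.2%). Calls in the other direction were few: the ovary was lower than the hypothalamus for 2 genes (35.2% of all genes) and than the pituitary for 0 (31.8%), the uterus lower than the hypothalamus for 3 (36.8%) and than the pituitary for 2, Ccne2 and Smc2 (33.7%), and the pituitary lower than the hypothalamus for 2 (30.8%). Between the neighbours uterus and ovary, 35 members were not called.

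Anln and Ccne1 did not follow this order. Anln, which in mouse oligodendrocytes also loads septins onto myelin, had 94.7, 61.6 and 113 CPM in WT hypothalami, against 27.2, 27.3 and 27.1 CPM in WT uteri, 54.2, 47.7 and 58.6 CPM in WT ovaries and 11.9, 10.6 and 7.45 CPM in WT pituitaries. Ccne1 had 21.2, 14.8 and 18.5 CPM in WT hypothalami, against 10.5, 6.92 and 10.04 CPM in WT uteri, 6.47, 5.34 and 7.32 CPM in WT ovaries and 5.67, 3.997 and 3.85 CPM in WT pituitaries. Both were called lower in each of the other 3 tissues than in the hypothalamus, with log2 differences of -1.63, -0.67 and -3.07 for Anln and -0.90, -1.43 and -1.91 for Ccne1 in uterus, ovary and pituitary. Per kb of transcript, Pcna was the most abundant member in every tissue, at 56.2 ± 3.13 CPM per kb in WT uteri, 52.6 ± 5.15 in WT ovaries, 31.0 ± 5.85 in WT pituitaries and 22.9 ± 4.66 in WT hypothalami (SD, n = 3). The uterine and ovarian values of Pcna differed by less than the ovarian SD. At the low end, 20 members were under 1 CPM in WT hypothalami and 1, Tk1, in WT pituitaries. No member was at 0 in all libraries of a tissue.

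**Figure D4:**
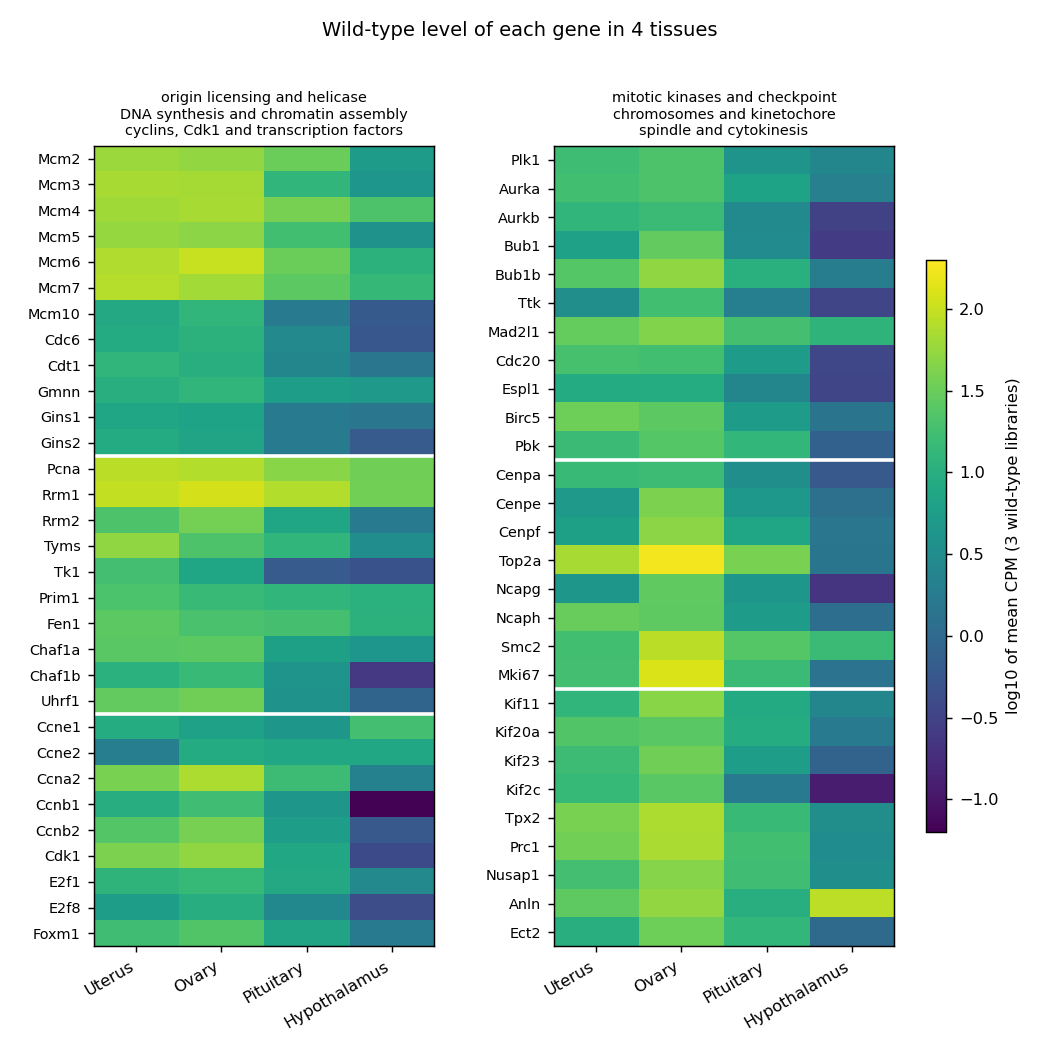
Heat map of the log10 mean CPM (colour; n = 3 libraries) of each member (rows, grouped by role) in WT uterus, ovary, pituitary and hypothalamus (columns). Most rows are darkest, that is lowest, in the hypothalamus, and Anln and Ccne1 are highest there.

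The WT uterus and ovary differed by role. The uterus was called higher than the ovary for 3 members, all of synthesis (32.7% of all genes were called higher), and lower for 21 (26.4%), with a median of -0.37 against 0.14 over all genes. No licensing gene was called, with a median of 0.11. Lower in the uterus were 3 of 9 cyclins and transcription factors, 4 of 11 kinases and checkpoint genes, 6 of 8 chromosome genes and 8 of 9 spindle genes. Tyms had 55.2, 50.5 and 49.03 CPM in WT uteri, against 19.1, 17.6 and 27.3 CPM in WT ovaries (log2 difference 1.29, SE 0.22, adjusted p = 0.000166). Mki67 had 16.3, 17.4 and 20.8 CPM in WT uteri, against 112, 104 and 166 CPM in WT ovaries (log2 difference -2.79, SE 0.27, adjusted p = 7.30e-07). Smc2, a core subunit of condensin, had 17.5, 12.98 and 20.96 CPM in WT uteri, against 81.96, 81.9 and 93.2 CPM in WT ovaries (log2 difference -2.31, SE 0.19, adjusted p = 1.48e-07). Cenpe had 5.43, 4.29 and 5.17 CPM in WT uteri, against 39.6, 39.03 and 43.97 CPM in WT ovaries (log2 difference -3.02, SE 0.37, adjusted p = 6.97e-06). In these 4 genes no library of one tissue reached the range of the other.

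The differences also ran along the base composition of the transcripts. The 21 members lower in the uterus had a median GC content of 43.3% and a median length of 3.98 kb, against 49.95% and 3.23 kb for the other 38. Over the 59 genes the log2 difference had a Spearman rho of 0.65 with GC content and -0.39 with length, and over 15722 annotated genes 0.32 and -0.25. These are descriptions across genes that share the same 6 libraries. With the trends over GC content and length removed from the counts of all genes, 2 members were called higher (Tyms and Prim1) and 28 lower, with a median of -0.63. Lower were then 1 of 12 licensing genes (Gmnn), 1 of 10 synthesis genes (Uhrf1), 7 of 9 cyclins and transcription factors, 5 of 11 kinases and checkpoint genes, 6 of 8 chromosome genes and 8 of 9 spindle genes. The shares of all genes called after this step are not reported here, so these member counts cannot be set against them. Tk1 lost its call, and the checkpoint gene Mad2l1 turned from a called -0.52 to 0.43 (adjusted p = 0.0801), so the split by role depended in part on this step. Cenpe then differed by -2.24 in place of -3.02, Cenpf by -2.17 in place of -2.95, Mki67 by -2.31 in place of -2.79, and Smc2 by -1.47 in place of -2.31. For the genotype fold changes in the uterus, rho was -0.08 with GC content and -0.05 with length over the 59 genes, and 0.13 and -0.21 over all annotated genes tested. In the ovary rho was 0.35 and -0.31 over the 59, and 0.33 and -0.41 over all. In the pituitary it was 0.33 and -0.07 over the 59, and 0.55 and -0.19 over all. In the hypothalamus it was 0.59 and -0.29 over the 44 members tested, and 0.64 and -0.47 over all.

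**Figure D5:**
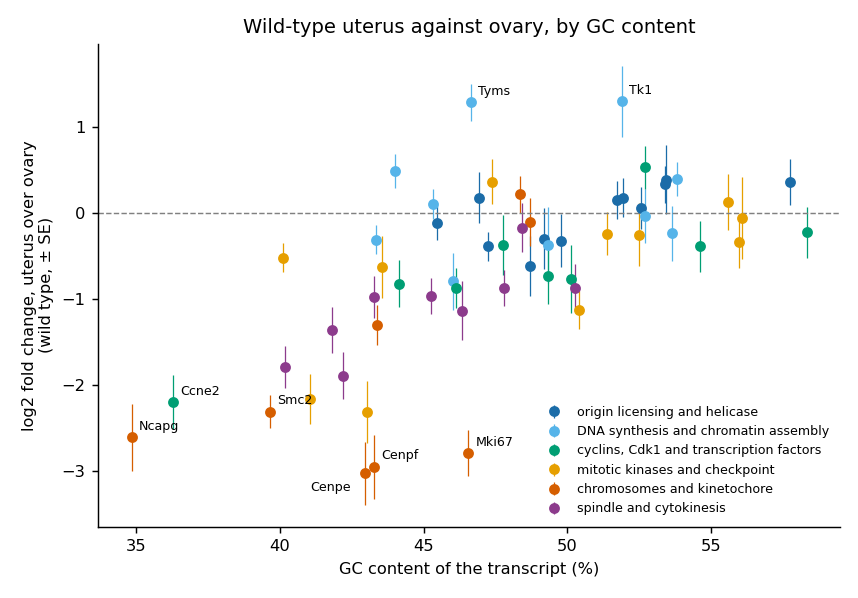
Log2 difference of WT uterus minus WT ovary (y axis) against GC content of the transcript in percent (x axis) for the 59 members; each point is a gene with its SE, coloured by role. Most chromosome and spindle genes lie at low GC content and below zero, down to -3.02 for Cenpe, and the 3 members called higher are synthesis genes.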

How the data were processed

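Libraries made from total RNA of 24 tissue samples were sequenced, with 3 libraries in each of 8 groups. The authors deposited whole-number read counts per gene symbol, not normalized, and tables of log2 fold changes with p-values and adjusted p-values of KO-labelled against wild type. Per the submitters' processing notes, Trimmomatic, FastQC, STAR, HTSeq and DESeq2 were used with mm10, and no versions were given. Of 24222 entries, 27 that a spreadsheet had turned into dates (0.122 to 0.392% of counts) were left out. The unstranded counting cannot part genes that overlap.

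Each tissue was fitted with edgeR 4.0.16 (R 4.3.3; TMM scaling, filterByExpr, robust quasi-likelihood test, Benjamini-Hochberg adjustment over all genes tested). Differences of the genotype effect came from 1 fit over 24 libraries and wild-type tissue contrasts from 1 fit over 12. The SE is the size of the log2 change divided by the square root of F. Printed CPM are scaled over all 24 libraries. Apart from a factor common to all libraries of a tissue, this differs from the scaling within a tissue by at most 4.76%. Symbols were annotated from GENCODE (95.2% matched). CPM per kb use the longest principal transcript.

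All 59 members are counted. The 8 with the smallest p in the uterus and the 3 with the smallest p in every other genotype test are given by library, with the member highest per kb in each tissue, members called or within 10 Mb of Kdm4a, and the 2 genes of smallest p in each pathway list. Other examples in each role were picked after their values were seen. The members and lists were chosen with earlier results of these data known. Replicate pairs of a group differed by far more than sampling noise (the lowest chi-square per degree of freedom was 10.5). Alternatives were RLE scaling, no filter, at least 1 CPM in 3 libraries, DESeq2 1.42.0, limma-voom (limma 3.58.1), the replicate number as a block, a joint fit, GC and length trends removed, and each library left out. The fits were tested on simulated counts. Some results are not reported here.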

Additional observations from a re-analysis of the deposited data

How the results depend on the processing

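The count of members called between genotypes depended on the tool and on single libraries, while the medians of the 4 tissues kept their side of zero. In the uterus edgeR called 0 of the 59. DESeq2 called 35 (1.76% of all genes were called higher), and leaving out 1 library gave 0 to 19 (0.682% of all genes at the 19). The fit with no filter called 8, and the fit with GC and length trends removed called 3. The share of all genes called in the fit with trends removed is not reported here. The median uterine log2 fold change stayed between 0.65 and 0.82 over all alternatives. Its range was -0.57 to -0.24 in the ovary, -0.99 to -0.28 in the pituitary and -0.27 to -0.07 in the hypothalamus. For the differences between tissues DESeq2 called 7 for uterus minus ovary and 10 for uterus minus pituitary, against 0 each, and leaving out 1 library gave 0 to 1 and 0 to 4. Leaving out the 3 libraries that stand apart, an alternative chosen after seeing the data, gave 3 for uterus minus pituitary. The cause of these changes was not tested. The medians ranged from 0.83 to 1.16 for uterus minus ovary, from 0.99 to 1.71 for uterus minus pituitary and from -0.02 to 0.61 for ovary minus pituitary. For the single genes recomputed in the tests of genotype and of its difference between tissues, 669 values kept their direction and side of the threshold, 59 passed it under an alternative, 24 no longer passed it and 0 reversed. Single genes of the WT tissue contrasts were not counted there; with GC and length trends removed, Mad2l1 turned from -0.52 to 0.43 for WT uterus against ovary.

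Within a tissue, whether replicate numbers pair KO-labelled with WT libraries cannot be told, because only same-numbered libraries were compared. The correlation of same-numbered deviations was -0.093 to -0.014 in the uterus, -0.200 to -0.048 in the ovary, 0.031 to 0.092 in the pituitary and -0.230 to 0.201 in the hypothalamus. Between tissues, same-numbered KO-labelled libraries correlated at -0.329 (number 2, uterus with ovary) to 0.293 (number 1, uterus with pituitary). Same-numbered WT libraries correlated at -0.059 (number 2, uterus with ovary) to 0.081 (number 3, uterus with hypothalamus). Whether a number marks the same animal across tissues was not tested, and the fit over 24 libraries treated them as independent. With the replicate block edgeR called 1 member in the pituitary and 0 in each of the other 3 tissues. The share of all pituitary genes called with the block is not reported here. Over all genes, calls in the uterus were 52, against 542 with DESeq2, 108 with no filter, 38 with the block and 0 to 171 without 1 library. With 3 libraries a group, changes of members under about 1 CPM, many of them in the hypothalamus, could not be resolved at this depth.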
